A study of Mus musculus with 8 samples.

Results

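Bone marrow-derived macrophages (BMDMs) receive interleukins and interferon-gamma through paired receptor chains, and 10 of these chains are described here: *Il4ra*, *Il13ra1*, *Il2rg*, *Il6ra*, *Il6st*, *Il10ra*, *Il10rb*, *Il17ra*, *Ifngr1* and *Ifngr2*. They were chosen by name, and all 10 were found among the 23761 genes of the deposited table. The LysM group comprised BMDMs of 4 control mice, homozygous for Cre recombinase at the lysozyme M locus, and the K2KO group comprised BMDMs of 4 mice with the same homozygous Cre and floxed alleles of *Klf2*. Cre at this locus acts in myeloid cells at large, not in macrophages alone. All mice were 3 months old, and the labels mark every library as vehicle. Marrow was grown for 6 days in medium conditioned by L929 fibroblasts, a source of macrophage colony-stimulating factor, and total RNA was sequenced with one library per mouse. The values are FPKM, in which fragments are scaled to transcript length in kilobases and to the number of fragments mapped, so levels can be set against each other between genes. The libraries are called LysM0 to LysM3 and K2KO0 to K2KO3 after their columns, which give the genotype but not the mouse.

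Most of these chains belong to the class I and class II cytokine receptor families, which have no enzyme activity and signal through Janus kinases (JAKs) bound to their cytoplasmic tails. A ligand-binding chain pairs with a second chain, the JAKs phosphorylate the tails, and STAT proteins dock there and move to the nucleus. In macrophages, IL-4 and IL-13 act chiefly through STAT6 and IL-10 through STAT3, which restrains inflammatory cytokine production. IL-6 also uses STAT3, but its receptor recruits the feedback inhibitor SOCS3, which acts on gp130 and not on the IL-10 receptor. IL-17 receptors are a separate family that signals through ACT1 and TRAF6.

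Summed FPKM lay between 497253 and 551608 in LysM and between 448235 and 501965 in K2KO. Read counts cannot be had from FPKM, so the depth behind a value is unknown, and steps between low values gave only a relative depth of 0.906 to 1.40 with LysM0 set to 1. It did not differ between the genotypes beyond the spread of the libraries (exact two-sided permutation test, p = 0.571), while the summed FPKM gave p = 0.0571 by the same test, with 0.0286 the smallest possible. LysM3 stood apart from the rest. Its mean correlation with the other libraries across genes was 0.938, whereas that of the other 7 libraries lay between 0.954 and 0.961. Calls are therefore also given without it. Of all the called genes named from the receptor chains, gene lists and markers below, *Il10ra*, *Il7r* and *Ddit4* were the ones still called without LysM3.

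*Klf2*, the targeted gene, measured 44.1, 52.9, 64.7 and 72.8 FPKM in LysM0 to LysM3 and 45.5, 41.6, 59.2 and 59.3 FPKM in K2KO0 to K2KO3. The groups overlapped. The means were 58.7 ± 12.7 and 51.4 ± 9.22 FPKM (SD, n = 4), with a log2 fold change of -0.18 (SE 0.17, limma adjusted p = 0.460) that changed sign, to 0.05, after the GC and length correction described below. A gene-level value does not show separately the part of *Klf2* that Cre removes. Because *Klf2* was not clearly lower, the second group is called the libraries labelled K2KO, and every direction below rests on those labels.

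The macrophage identity of the cultures was checked with 9 listed macrophage markers. *Cd68* averaged 1807 FPKM over the 8 libraries, and *Csf1r*, the receptor for macrophage colony-stimulating factor, was 523.6 ± 15.5 FPKM in LysM and 526.1 ± 53.2 FPKM in the libraries labelled K2KO. The summed level of the 9 markers was 4945 ± 120 FPKM in LysM and 4597 ± 109 FPKM in the libraries labelled K2KO. The groups did not overlap, as was the case for 23.1% of single tested genes. Summed FPKM of all genes also ran lower in those libraries (448235 to 501965 against 497253 to 551608 in LysM). Its part in the marker sum was not tested. In this list *Mertk*, an efferocytosis receptor, was called higher (log2 fold change 0.36, limma adjusted p = 0.0285) and *Lyz2*, the lysozyme gene whose locus carries Cre in all mice, was called lower (-0.49, limma adjusted p = 0.0260), which made 22.2% of the list against 18.4% of all tested genes. Once GC content and transcript length were corrected for, as described below, the log2 fold changes were 0.29 for *Mertk* (limma adjusted p = 0.0589) and -0.43 for *Lyz2* (0.0591), just short of a call. Without LysM3 they were 0.35 (limma adjusted p = 0.0938) and -0.48 (0.0909). *Adgre1* (encoding F4/80), *Cd68*, *Csf1r*, *Fcgr1*, *Cd14*, *Itgam* and *Cd63* were not called.

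The markers of other cells were summed for each library. The 6 T cell markers summed to 0.583 ± 0.237 and 0.951 ± 0.167 FPKM in LysM and the libraries labelled K2KO, with *Lck* the most abundant (exact two-sided permutation p = 0.0857). The 4 NK cell markers summed to 0.0989 ± 0.0353 and 0.209 ± 0.102 FPKM (exact two-sided permutation p = 0.0857). Their sum reached at most 0.331 FPKM in a library, with *Klrb1c* the most abundant and *Gzma* listed at 0 in all libraries. These lymphocytes are the cells in which *Il2rg* is best known. The 6 B cell markers summed to 23.0 ± 8.82 and 21.5 ± 6.14 FPKM, most of it *Ighm*, while *Ms4a1* and *Pax5* stayed under 1 FPKM in every library. The 10 neutrophil and precursor markers summed to 253 ± 54.5 and 253 ± 61.3 FPKM, led by *S100a9*. One of them, *Camp*, which encodes cathelicidin, was called lower in the libraries labelled K2KO (13.6 ± 2.21 against 6.40 ± 2.53 FPKM, log2 fold change -1.14, limma adjusted p = 0.0178, and -1.06 with 0.0738 without LysM3). It was the one call among the 8 of these markers tested, 12.5%, against 18.4% of all tested genes and 8.61% called lower. Dendritic cell markers (led by *Ccr7*), mast cell and basophil markers (*Gata2*), fibroblast markers (*Dcn*) and erythroid markers (*Hba-a1*) each summed to less than 5 FPKM in every library. Their mean sums were higher in the libraries labelled K2KO, at 1.70 against 3.03 FPKM for dendritic cells, 0.563 against 1.04 FPKM for mast cells and basophils, 0.551 against 1.64 FPKM for fibroblasts and 0.758 against 1.06 FPKM for erythroid cells, and the groups did not pass the test for any of them (exact two-sided permutation p of 0.0857, 0.0571, 0.171 and 0.429). The part of these markers in the results below was not tested. In bulk RNA, fewer cells that express a gene and less RNA per cell cannot be told apart.

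Expression of the 10 chains was read from a limma fit over the 10920 genes whose mean FPKM reached 1, on the log2(FPKM + 0.1) scale. Adding 0.1 shrinks the fold changes of low genes relative to their FPKM ratios. A gene was called when its Benjamini-Hochberg adjusted p was below 0.05 and its log2 fold change exceeded 0.26 in size. All 10 chains passed the filter on low values. *Il10rb* was the most abundant chain at a mean of 178.7 FPKM over the 8 libraries, and *Il13ra1* was the least abundant at 1.63 FPKM, a 109-fold range. In order of mean FPKM, *Ifngr1* (93.2) followed *Il10rb*, and then came *Ifngr2* (67.0), *Il10ra* (66.1), *Il2rg* (53.3), *Il4ra* (17.1), *Il6st* (11.3), *Il6ra* (8.38) and *Il17ra* (4.20). Each chain exceeded the next one in this order in 8 of 8 libraries, except *Ifngr2*, which exceeded *Il10ra* in only 4 of 8.

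**Figure D1:**
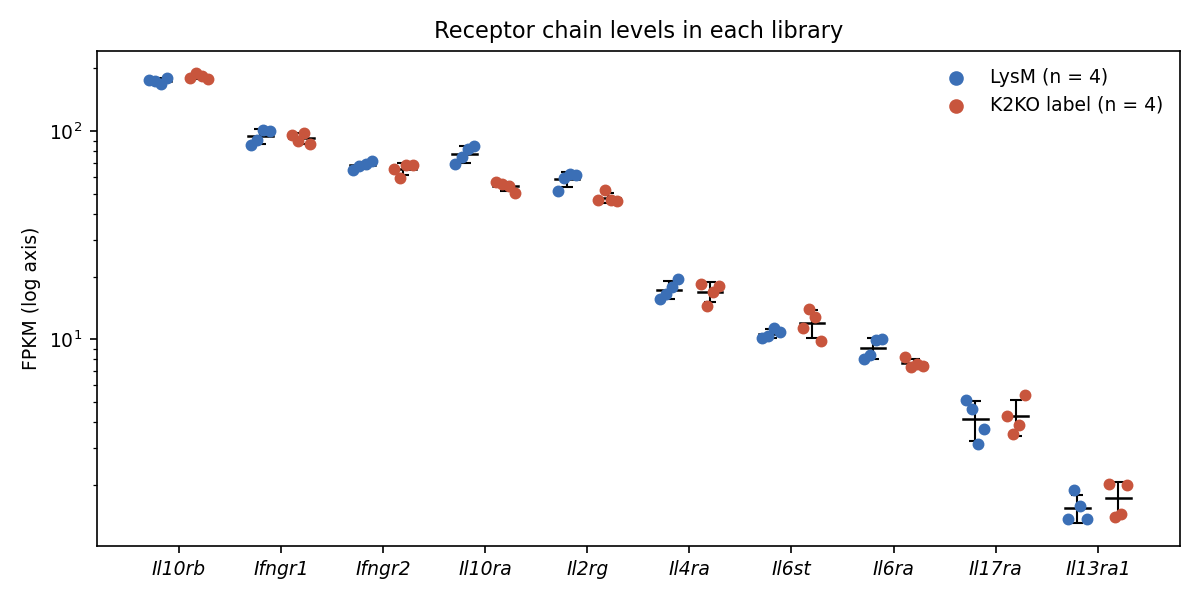
FPKM (log axis) of the 10 receptor chains in each library, with points for single libraries, a horizontal bar for the mean of 4 libraries and whiskers for the SD, LysM in blue and the libraries labelled K2KO in red. Only *Il10ra* shows groups that do not overlap, at 69.1 to 84.8 FPKM against 50.6 to 57.2 FPKM.

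Of the 10 chains, 2 were called and both were lower in the libraries labelled K2KO. For all tested genes the called share was 18.4%, with 8.61% lower and 9.84% higher, so the share of chains called was near the background. The groups did not overlap for 1 of 10 chains, *Il10ra*, whereas this was the case for 23.1% of all tested genes (10.2% lower and 12.9% higher). The median log2 fold change of the chains was -0.03, against 0.01 for all tested genes, and 6 of 10 were negative, against 48.2% of all tested genes. Of these, *Il4ra*, *Ifngr1* and *Ifngr2* changed sign under another scaling of the libraries. Without LysM3, 3.09% of the tested genes (337) were called and 1 chain, again *Il10ra*.

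Fold changes in these libraries moved with base composition. Across all tested genes the median log2 fold change fell from 0.19 in the eighth of genes with the lowest GC content to -0.16 in the eighth with the highest. As an alternative, log2 values were therefore corrected library by library with a smooth curve over GC content and length, after which 8.96% of genes were called, 4.32% lower. *Il10ra* has a transcript GC content of 53.0% and lies in an eighth with a median of -0.04. *Il2rg* has 49.0% and lies in an eighth with a median of 0.03.

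**Figure D2:**
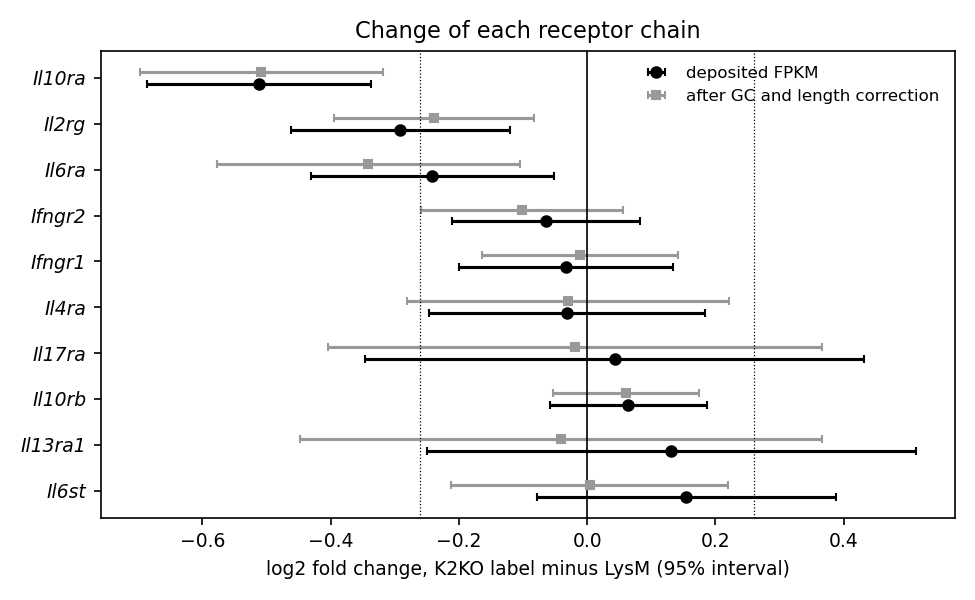
Log2 fold change of each chain (libraries labelled K2KO minus LysM, n = 4 each) with its 95% interval from limma, as deposited (black circles) and after the GC and length correction (grey squares), with dotted lines at the fold threshold of 0.26. *Il10ra* lies at -0.51 in both fits, while *Il2rg* moves from -0.29 to -0.24.

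*Il10ra* (ENSMUSG00000032089.16, GRCm38 chr9:45253837-45269149, minus strand) encodes the ligand-binding chain of the IL-10 receptor and showed the largest change among the 10 chains. It measured 69.1, 74.8, 82.4 and 84.8 FPKM in LysM0 to LysM3 and 57.2, 55.4, 54.2 and 50.6 FPKM in K2KO0 to K2KO3. Every library labelled K2KO lay below every LysM library. The means were 77.8 ± 7.20 and 54.4 ± 2.81 FPKM (SD, n = 4), which is 30.1% lower. The log2 fold change was -0.51 (SE 0.08, 95% interval -0.69 to -0.34, limma adjusted p = 0.00825), and the exact two-sided permutation p for this gene alone was 0.0286, the smallest that 4 against 4 libraries allow. By its absolute moderated t statistic *Il10ra* ranked 115 of 10920. The call held without LysM3 (-0.47, limma adjusted p = 0.0360) and in each of the other fits that left out one library, with log2 fold changes of -0.57 to -0.47. After the GC and length correction it was -0.51 (limma adjusted p = 0.0149). Over the 12 alternative settings the log2 fold change of *Il10ra* ranged from -0.51 to -0.39, and the gene was called in 11. The annotation places a processed pseudogene, *Gm20612*, and a microRNA gene, *Mir7086*, within the *Il10ra* gene, and neither has a row in the table.

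*Il10rb* encodes the second chain of the IL-10 receptor, which the IL-22 and interferon-lambda receptors share. It measured 175.4, 174.6, 168.7 and 180.2 FPKM in LysM0 to LysM3 and 180.4, 189.4, 184.2 and 176.8 FPKM in K2KO0 to K2KO3. The groups overlapped and the spread was the smallest of the 10 chains, with a coefficient of variation of 2.70% in LysM and 2.95% in the libraries labelled K2KO. The log2 fold change was 0.06 (SE 0.05, 95% interval -0.06 to 0.19, limma adjusted p = 0.407). Ratios of chains within a library, here and below, were taken on FPKM + 0.1, so the scaling of the library cancels closely but not exactly. The ratio of *Il10ra* to *Il10rb* was 0.394, 0.429, 0.489 and 0.471 in LysM0 to LysM3 and 0.317, 0.293, 0.295 and 0.286 in K2KO0 to K2KO3. The groups did not overlap, and the mean ratio was 0.446 ± 0.0425 against 0.298 ± 0.0135. The log2 ratio differed by -0.58 (exact two-sided permutation p = 0.0286, adjusted p = 0.0857 over the 6 ratios tested). With 6 ratios and 4 libraries a group, the adjusted value did not pass 0.05.

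*Il10*, the ligand, was 18.6, 23.6, 36.4 and 29.2 FPKM in LysM0 to LysM3 and 16.5, 17.1, 17.9 and 15.0 FPKM in K2KO0 to K2KO3. All LysM libraries were higher, LysM0 only just. The means were 27.0 ± 7.64 and 16.6 ± 1.25 FPKM, with a log2 fold change of -0.65 (SE 0.18, limma adjusted p = 0.0333). The call was lost in 7 of the 8 fits that left out one library and remained only without LysM0, with an adjusted p of 0.113 without LysM3. The log2 fold change lay between -0.82 and -0.50 in these 8 fits. After the GC and length correction it was -0.67 (limma adjusted p = 0.0384). Of the 12 alternative settings, 8 kept the call of *Il10* and 4 lost it.

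**Figure D3:**
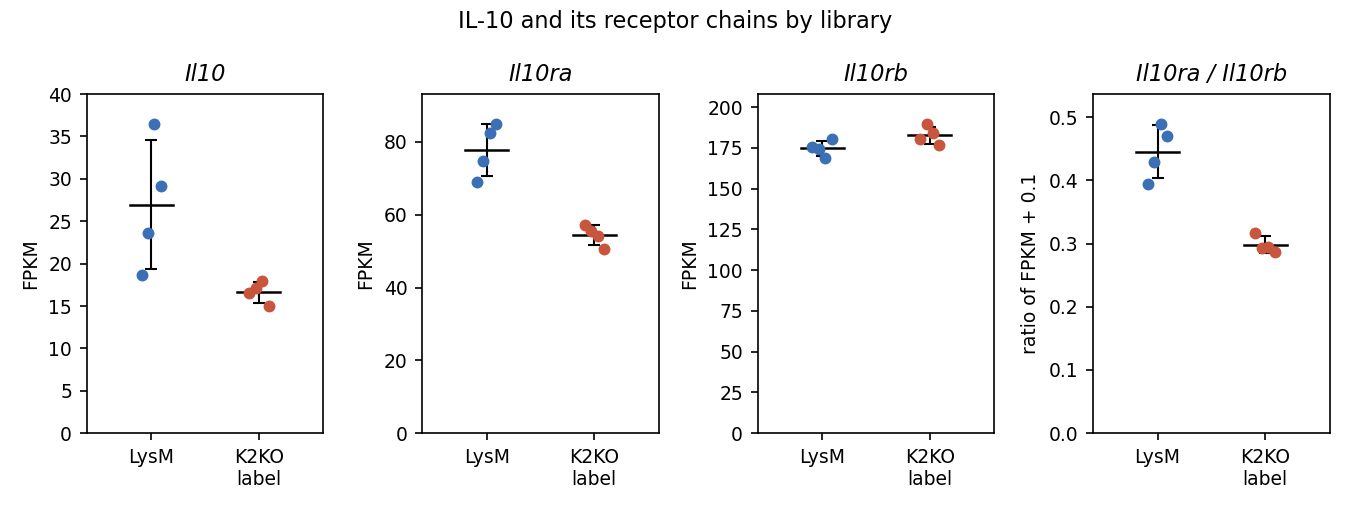
FPKM of *Il10*, *Il10ra* and *Il10rb* and the ratio of *Il10ra* to *Il10rb* in each library (points), with the mean of 4 libraries and the SD, all axes starting at 0. The groups are apart for *Il10*, *Il10ra* and the ratio, and *Il10rb* lies between 168.7 and 189.4 FPKM in all 8 libraries.

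*Il2rg* (ENSMUSG00000031304.18, GRCm38 chrX:101264378-101268255, minus strand) encodes the common gamma chain, which pairs with IL-4R alpha in the type I IL-4 receptor and also serves IL-2, IL-7, IL-9, IL-15 and IL-21. It was 51.4, 59.6, 62.2 and 61.6 FPKM in LysM0 to LysM3 and 46.5, 51.8, 46.8 and 46.2 FPKM in K2KO0 to K2KO3. The groups overlapped at K2KO1, which lay just above LysM0, and the library labelled K2KO was lower in 15 of 16 pairs. The means were 58.7 ± 5.01 and 47.8 ± 2.66 FPKM (18.5% lower), and the log2 fold change was -0.29 (SE 0.08, 95% interval -0.46 to -0.12, limma adjusted p = 0.0297). This change passed the fold threshold of 0.26 narrowly. After the GC and length correction it was -0.24 (limma adjusted p = 0.0586), and the call was also lost without any one of LysM1, LysM2, LysM3 (-0.27, limma adjusted p = 0.0908), K2KO0 or K2KO2. *Il2rg* lies within a read-through gene of the same strand, *Gm20489*, which was listed at 0 to 0.125 FPKM, and how the authors' counting divided fragments between them is not given in the sources used here. Values of sex-linked genes stand beside it. *Xist*, the RNA that coats the inactive X chromosome, was detected in all 8 libraries and was higher in those labelled K2KO (12.6 ± 1.39 against 17.4 ± 2.62 FPKM, log2 fold change 0.45, limma adjusted p = 0.0317), which became 0.24 (0.0705) after the GC and length correction and 0.41 (0.107) without LysM3. The Y-linked gene *Ddx3y* was listed at 0 in all 8. Their part in the *Il2rg* result was not tested.

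*Il4ra*, the chain that binds IL-4 in both receptor types, was 15.5, 16.5, 17.8 and 19.4 FPKM in LysM0 to LysM3 and 18.5, 14.4, 16.9 and 17.97 FPKM in K2KO0 to K2KO3. The groups overlapped widely, and the log2 fold change was -0.03 (95% interval -0.25 to 0.18, limma adjusted p = 0.831). *Il13ra1*, the partner in the type II receptor for IL-4 and IL-13, lay between 1.36 and 1.88 FPKM in LysM and between 1.40 and 2.02 FPKM in the other group. Its log2 fold change was 0.13 (95% interval -0.25 to 0.51, limma adjusted p = 0.595), so a change of moderate size in either direction could not be told from none. *Il2rg* exceeded *Il13ra1* by a mean ratio of 36.0 ± 4.87 in LysM and 27.2 ± 6.29 in the libraries labelled K2KO (exact permutation p = 0.0857, adjusted p = 0.171). The log2 difference of this ratio was -0.42 and ranged from -0.43 to -0.20 over 4 alternative settings. *Il4ra* over *Il2rg* was 0.296 ± 0.0175 and 0.357 ± 0.0542 (exact permutation p = 0.114, adjusted p = 0.171), and *Il4ra* over *Il13ra1* was 10.7 ± 2.004 and 9.50 ± 1.08 (exact permutation p = 0.371, adjusted p = 0.446). None of these 3 ratios passed the test.

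*Il6ra* (GRCm38 chr3:89864059-89913196, minus strand) encodes the IL-6-binding chain, and *Il6st* encodes gp130, the signalling chain that IL-6 shares with oncostatin M, leukemia inhibitory factor and IL-27. *Il6ra* was 8.03, 8.42, 9.92 and 10.02 FPKM in LysM0 to LysM3 and 8.19, 7.37, 7.62 and 7.42 FPKM in K2KO0 to K2KO3. LysM0 lay inside the other group, and the library labelled K2KO was lower in 15 of 16 pairs. The log2 fold change of -0.24 (SE 0.08, 95% interval -0.43 to -0.05, limma adjusted p = 0.0694) did not pass the test, but did under quantile normalization (-0.29, limma adjusted p = 0.0420) and without LysM0. *Il6st* was 10.1, 10.3, 11.4 and 10.8 FPKM in LysM0 to LysM3 and 11.3, 13.9, 12.8 and 9.80 FPKM in K2KO0 to K2KO3. The libraries labelled K2KO held both its highest and its lowest value, and the log2 fold change was 0.15 (95% interval -0.08 to 0.39, limma adjusted p = 0.296), 0.0037 after the GC and length correction (limma adjusted p = 0.986) and 0.08 without K2KO1 (0.598). Neither chain was called, yet their ratio in a library did not overlap between the groups. *Il6ra* over *Il6st* was 0.799 to 0.928 in LysM and 0.533 to 0.760 in the libraries labelled K2KO, with a log2 difference of -0.40 (exact two-sided permutation p = 0.0286, adjusted p = 0.0857 over the 6 ratios).

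*Ifngr1*, which binds interferon-gamma, and *Ifngr2*, the second chain, which carries JAK2, were level. *Ifngr1* lay between 85.5 and 101.6 FPKM in LysM and between 86.4 and 97.4 FPKM in the libraries labelled K2KO, with *Ifngr2* between 65.1 and 72.0 FPKM and between 59.4 and 68.5 FPKM. The log2 fold change was -0.03 for *Ifngr1* (95% interval -0.20 to 0.13, limma adjusted p = 0.765) and -0.06 for *Ifngr2* (95% interval -0.21 to 0.08, limma adjusted p = 0.492). *Ifngr1* over *Ifngr2* was 1.38 ± 0.0666 and 1.41 ± 0.103 (exact permutation p = 0.629, adjusted p = 0.629). *Il17ra*, the shared chain of the IL-17 receptors, had the largest coefficient of variation in LysM (21.5%), with values between 3.15 and 5.13 FPKM in LysM and between 3.49 and 5.41 FPKM in the other group. Its log2 fold change was 0.04 (95% interval -0.35 to 0.43, limma adjusted p = 0.876). For 7 of the 8 chains not called, the 95% interval lay within 0.5 on either side of 0 on the log2 scale, *Il13ra1* being the exception.

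**Figure D4:**
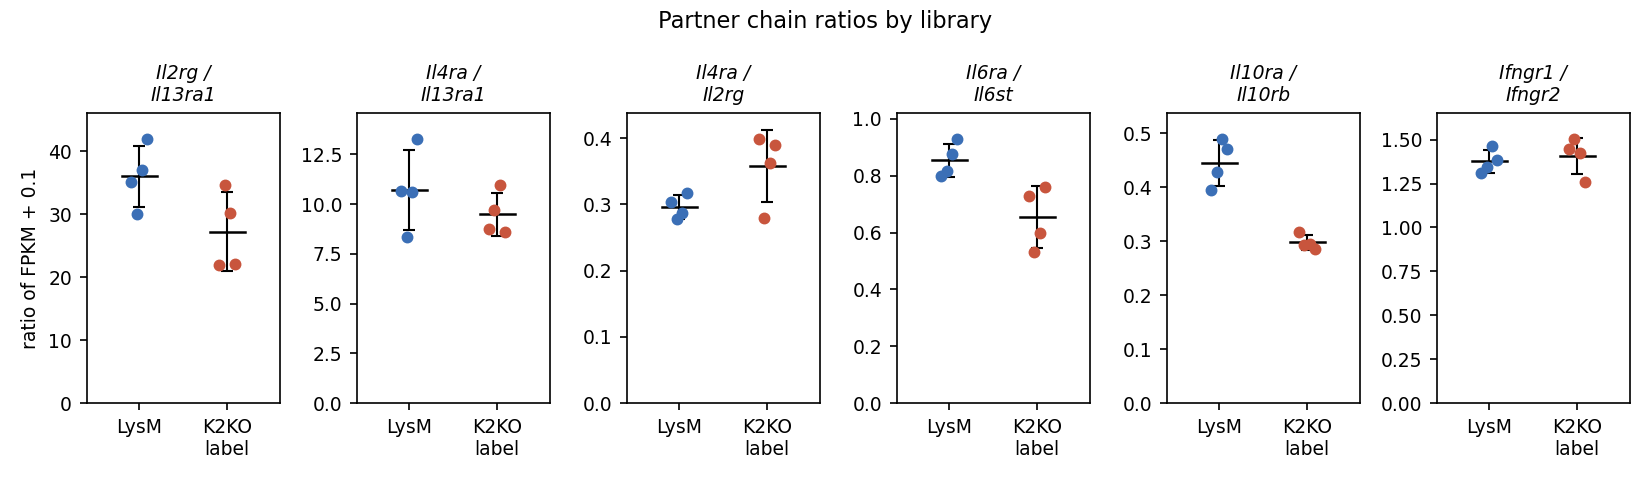
Ratio of FPKM + 0.1 between partner chains of one receptor in each library (points), with the mean of 4 libraries and the SD, on axes starting at 0. The groups are apart for *Il6ra* over *Il6st* and for *Il10ra* over *Il10rb* and overlap for the other ratios.

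*Il10rb* and *Ifngr2* lie with *Ifnar2* and *Ifnar1*, the chains of the type I interferon receptor, in a cluster of 4 class II receptor genes on the plus strand of GRCm38 chr16:91372783-91565623. *Ifnar2* ends 574 bases before *Il10rb* starts, and the table gives one locus for both. The cluster also holds a read-through gene that overlaps *Il10rb*, *Gm21970*, listed at 0 to 0.250 FPKM. *Ifnar2* was 175.4 ± 20.3 FPKM in LysM against 157.2 ± 18.7 FPKM (log2 fold change -0.16, limma adjusted p = 0.304). *Ifnar1* was 20.1 to 21.99 FPKM and 22.6 to 24.7 FPKM. Its groups did not overlap, but the log2 fold change of 0.15 missed the test (limma adjusted p = 0.0776). None of the 4 genes was called.

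The upstream sequences of 7 chains were available from RefSeq (GRCm38.p6), as the 250 bases before the annotated start. *Il10ra*, *Il10rb* and *Il17ra* had no entry. Those of *Il2rg* and *Ifngr2* are printed here because Krüppel-like factors such as KLF2 are known to bind CACCC boxes and these windows hold them in one chain that was called and one that was not. Capitals mark CACCC on the opposite strand, read as GGGTG, and in *Il2rg* the pair of matches shares one base.
Il2rg, chrX:101268256-101268505, minus strand: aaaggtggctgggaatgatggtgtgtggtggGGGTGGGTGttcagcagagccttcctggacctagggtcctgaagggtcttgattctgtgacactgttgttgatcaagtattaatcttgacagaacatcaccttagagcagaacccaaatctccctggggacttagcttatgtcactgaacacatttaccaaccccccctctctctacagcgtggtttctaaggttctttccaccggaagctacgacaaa
Ifngr2, chr16:91546809-91547058, plus strand: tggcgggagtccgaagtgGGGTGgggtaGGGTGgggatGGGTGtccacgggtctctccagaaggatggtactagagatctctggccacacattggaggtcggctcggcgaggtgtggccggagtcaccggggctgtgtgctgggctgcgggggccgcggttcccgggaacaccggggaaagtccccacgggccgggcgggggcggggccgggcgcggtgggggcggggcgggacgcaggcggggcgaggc

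Counting CACCC on either strand, *Il4ra* had 4 matches, *Ifngr2* had 3, *Il2rg* and *Il6st* had 2 each, and *Il13ra1*, *Il6ra* and *Ifngr1* had 0. Of 32851 RefSeq windows of the same length, 52.0% held at least one match. *Il4ra* and *Ifngr2*, with the most matches, were not called. The STAT site TTCNNNGAA was in none of the 7 windows and in 7.02% of all windows, and GAGGAA, a PU.1 core, was in the *Il6ra* window only and in 23.3% of all windows. A match describes these letters in this window and is not a measured binding site.

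Among 37 other cytokine receptor chains, 14 passed the filter, of which 3 were called higher and 1 lower (median log2 fold change -0.16), against 9.84% higher and 8.61% lower among all tested genes. *Il7r*, the IL-7 receptor chain that pairs with the common gamma chain, was 24.4 to 34.8 FPKM in LysM against 49.6 to 62.7 FPKM (log2 fold change 0.94, SE 0.13, limma adjusted p = 0.00618). *Il7r* was called in 11 of 12 alternative settings and in 8 of 8 fits without a library, whereas *Il2rg*, its partner, was called in 5 of 12 and 3 of 8. *Csf2rb*, the common beta chain of the IL-3, IL-5 and GM-CSF receptors, rose from 41.4 ± 7.58 to 68.8 ± 7.22 FPKM (0.74, limma adjusted p = 0.0120), and *Csf2rb2*, the IL-3-specific beta chain, rose from 60.7 ± 10.95 to 99.0 ± 12.5 FPKM (0.71, limma adjusted p = 0.0146). These beta chains are close copies, so fragments could be divided between them and each value is uncertain. Without LysM3 both calls were lost, at 0.71 for *Csf2rb* (limma adjusted p = 0.0529) and 0.68 for *Csf2rb2* (0.0627). *Il3ra*, the alpha chain that binds IL-3, fell from 128.8 ± 14.4 to 89.7 ± 18.8 FPKM (-0.54, limma adjusted p = 0.0292). Its call was lost after the GC and length correction (-0.35, limma adjusted p = 0.0680) and without LysM3 (-0.51, 0.0968).

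**Figure D5:**
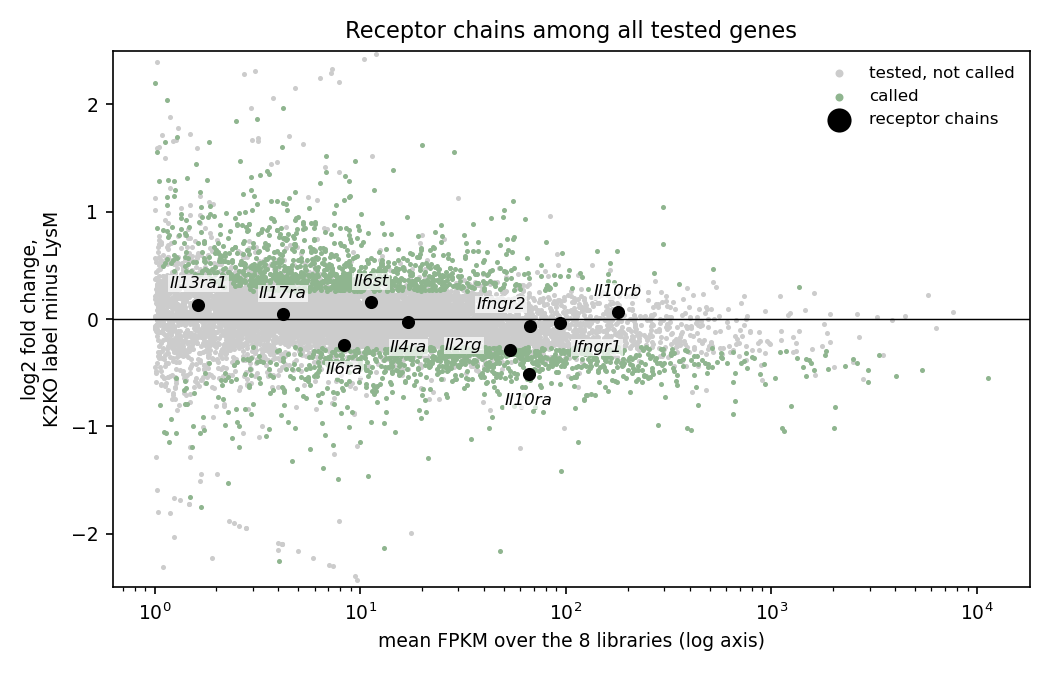
Log2 fold change (libraries labelled K2KO minus LysM) against mean FPKM over the 8 libraries (log axis) for the 10920 tested genes, with called genes in green and the 10 receptor chains in black. The chains span 1.63 to 178.7 FPKM and *Il10ra* lies lowest at -0.51, and 53 genes beyond 2.5 on either side are outside the axis.

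Of 24 genes for signalling next to the receptors, namely JAKs, STATs and their regulators, adaptors such as *Irs2* and *Gab2* and the IL-17 arm with *Traf6*, *Traf3ip2* and *Nfkbiz*, 23 passed the filter, of which 2 were called higher and 3 lower (median log2 fold change -0.0034), a share of 21.7% against 18.4% of all tested genes. *Jak2*, the kinase of *Ifngr2*, rose from 3.39 ± 0.251 to 4.46 ± 0.441 FPKM (0.38, limma adjusted p = 0.0241), and *Traf6*, the ubiquitin ligase below the IL-17 receptor, rose from 4.12 ± 0.142 to 5.03 ± 0.403 FPKM (0.28, limma adjusted p = 0.0296). *Ptpn6*, encoding the phosphatase SHP-1, fell from 110.3 ± 10.3 to 89.3 ± 5.35 FPKM (-0.30, limma adjusted p = 0.0311). *Ptpn2*, encoding a phosphatase of Janus kinases, had a log2 fold change of -0.33 (limma adjusted p = 0.0336), and *Nfkbiz*, encoding I kappa B zeta, one of -0.40 (limma adjusted p = 0.0293). After the GC and length correction *Jak2* was at 0.22 (limma adjusted p = 0.131), *Traf6* at 0.12 (0.247) and *Ptpn6* at -0.20 (0.157), and these calls were lost. Without LysM3 none of the 5 was called, with log2 fold changes of 0.43 for *Jak2*, 0.26 for *Traf6*, -0.25 for *Ptpn6*, -0.29 for *Ptpn2* and -0.39 for *Nfkbiz* and limma adjusted p from 0.0596 to 0.109. Fits that left out one library gave 0 to 7 calls in the list, with 7 without K2KO3. Of all tested genes these fits called 3.09% (without LysM3) to 26% (without K2KO3). Upper-quartile scaling gave 4 higher and 1 lower, beside 1335 higher and 748 lower among all tested genes. Quantile normalization gave 0 higher and 2 lower, beside 835 higher and 699 lower. *Stat6* was 60.2 ± 1.02 and 60.1 ± 2.29 FPKM and *Stat3* was 25.3 ± 1.45 and 23.1 ± 1.05 FPKM, and neither was called.

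Most ligands of these receptors were near 0. Of 21 ligand genes 16 were listed and 4 passed the filter, *Il10*, *Osm*, *Il15* and *Il27*, of which *Il10* was the one called, lower, beside 8.61% called lower among all tested genes. *Osm*, a gp130 ligand, was the most abundant at 65.2 ± 8.58 and 54.2 ± 5.39 FPKM (limma adjusted p = 0.108). *Il4* and *Ifng* were at most 0.168 FPKM in any library, *Il6* was at most 0.332 FPKM, and *Il13* was listed at 0 in all 8.

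Targets of the receptors were read from the same fit. Of 21 tested interferon-gamma targets 1 was called, *Gbp6*, a guanylate-binding protein gene (1.21 ± 0.363 against 2.42 ± 0.643 FPKM, log2 fold change 0.95, limma adjusted p = 0.0355). This was 4.76% of the list, under the 18.4% of all tested genes, and the call was lost after the GC and length correction, where the log2 fold change stayed at 0.76 (limma adjusted p = 0.114), and without LysM3 (1.096, 0.0658). Without LysM0 the list held 4 calls, all lower and all genes of MHC class II presentation (*Cd74*, *H2-Aa*, *H2-Ab1* and *H2-Eb1*), and *Gbp6* was not among them. That fit called 21.4% of all 10920 tested genes, 1155 of them lower, so 4 calls among 21 genes were near the background. Of 9 tested IL-4 and STAT6 targets 1 was called, *Klf4*, a Krüppel-like factor induced by STAT6 (15.1 ± 1.32 against 20.2 ± 3.31 FPKM, log2 fold change 0.41, limma adjusted p = 0.0366, and 0.39 with 0.114 without LysM3). Of 12 tested targets of IL-10, IL-6 and STAT3, 3 were called (25.0%). *Ddit4*, an mTORC1 inhibitor, rose from 1.12 ± 0.126 to 2.18 ± 0.276 FPKM (0.91, limma adjusted p = 0.00825). *Zfp36*, encoding the RNA-destabilising protein tristetraprolin, fell from 478.5 ± 31.4 to 359.8 ± 55.0 FPKM (-0.42, limma adjusted p = 0.0292), and *Bcl3*, an NF-kappa B cofactor, fell from 27.3 ± 2.505 to 22.2 ± 2.19 FPKM (-0.30, limma adjusted p = 0.0430). After the GC and length correction *Zfp36* stayed at -0.37 and narrowly missed the test (limma adjusted p = 0.0632), while *Bcl3* was at -0.04 (0.751). Without LysM3 *Zfp36* was at -0.38 (limma adjusted p = 0.0982) and *Bcl3* at -0.24 (0.115). *Socs3*, the STAT3-induced inhibitor of gp130, was 2.55 ± 0.611 and 1.74 ± 0.439 FPKM and did not pass the test (limma adjusted p = 0.118).

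Genes that act on receptors at the cell surface included 9 tested members, of which 1 was called higher and 3 lower, against 9.84% higher and 8.61% lower among all tested genes. Upper-quartile scaling turned this balance to 3 higher and 2 lower, beside 1335 higher and 748 lower among all tested genes. Quantile normalization turned it to 2 higher and 1 lower, beside 835 higher and 699 lower. *Vps35*, a retromer subunit that recycles membrane proteins, rose from 24.3 ± 1.78 to 33.7 ± 3.70 FPKM (0.47, limma adjusted p = 0.0129). *Rhbdf2* (iRhom2), which carries the sheddase ADAM17 to the surface, had a log2 fold change of -0.27 (limma adjusted p = 0.0416). *Cbl*, a ubiquitin ligase for activated receptors, had one of -0.38 (limma adjusted p = 0.0303), and *Stub1*, encoding the ubiquitin ligase CHIP, one of -0.38 (limma adjusted p = 0.0329). After the GC and length correction *Vps35* was at 0.23 (limma adjusted p = 0.0591), *Rhbdf2* at -0.19 (0.0665) and *Stub1* at -0.16 (0.193), and these calls were lost. Without LysM3 the log2 fold changes were 0.42 for *Vps35*, -0.28 for *Rhbdf2*, -0.40 for *Cbl* and -0.34 for *Stub1*, with limma adjusted p from 0.0519 to 0.104, and none was called. *Adam17* itself was 40.5 ± 2.36 and 43.4 ± 3.73 FPKM (limma adjusted p = 0.356). Of the called genes in these lists, only *Il7r* and *Ddit4* were called in all 8 fits that left out one library.

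The genes whose values most resembled those of *Il10ra* were *Ikbke*, *Dok2* and *Fcgrt*, with Pearson correlations of 0.996, 0.993 and 0.988 over the 8 libraries on the log2 scale. They encode the kinase IKK epsilon, a docking protein for tyrosine kinases and the neonatal Fc receptor. All 8 points share the genotype difference, and 211 of 9703 protein-coding genes compared had a correlation over 0.9. *Dok2* was 43.7, 51.3, 68.6 and 63.8 FPKM in LysM0 to LysM3 and 28.7, 29.0, 27.96 and 24.9 FPKM in K2KO0 to K2KO3, a log2 fold change of -1.02 (limma adjusted p = 0.00528), -0.96 without LysM3 (0.0346) and -0.84 after the GC and length correction (0.0204). Its groups, like those of *Il10ra* and of 23.1% of all tested genes, did not overlap. *Dok2* was chosen for its likeness to *Il10ra*, so its separation and adjusted p give no separate support. The difference in size between the fold changes of *Dok2* and *Il10ra* was not tested.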

How the data were processed

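RNA-sequencing of BMDMs from 4 LysM and 4 K2KO mice was re-analysed from the deposited table of FPKM, which the authors computed with Cufflinks from reads aligned to mm10, with one column per library and no pooling. The paper's methods name TopHat2 as the aligner, whereas the submitters' processing notes name STAR, Cufflinks and Cuffdiff, with no versions given in the sources used here. The methods and the sample labels also name different RNA kits. Columns end in 0 to 3 and sample titles in 1 to 4, so columns were mapped to genotypes only. FPKM hold no counts, which left no counting interval and no test for counts.

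Of 23761 listed genes, 23645 matched GENCODE M21 (GRCm38), used for names, positions, GC content and length. Genes whose mean FPKM reached 1 (10920) entered a limma 3.58.1 fit of log2(FPKM + 0.1) on genotype (lmFit and eBayes, with an intensity trend) under R 4.3.3, without covariates. Benjamini-Hochberg adjustment ran over all tested genes. For ratios an exact two-sided permutation test was used (35 arrangements), in Python 3.11.15. The alternatives were pseudocounts of 1 and 0.01, a filter at 0.1 or none, quantile and upper-quartile scaling, no intensity trend, ordinary least squares, a fold threshold of 1, a local regression on GC content and length (span 0.3), a block on the column number alone and with that regression, and leaving out each library. The procedure was tested on simulated data.

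The receptor chains and the gene and marker lists were chosen with earlier results of these data known, and give no independent support. Besides the chains, *Klf2*, the macrophage and sex-linked markers and the 4 clustered receptor genes, the rule named the called genes of each list (at most 6), the most abundant gene of each marker list and the 3 genes most correlated with the chain of largest moderated t. *Il4ra* also stands in the STAT3 list, *Fcgr1* is also an interferon target, and *Cish* and *Socs1* stand in 2 lists each. Other genes, chiefly *Stat6*, *Stat3*, *Socs3*, *Adam17*, *Osm*, *Il15*, *Il27* and ligands and markers near 0, were named after their values were seen. Macrophage marker *Ctsb* and Y-linked genes other than *Ddx3y* were not analysed here, and some list members are not reported here.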

Additional observations from a re-analysis of the deposited data

Results flagged for a closer look

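One value lay far from the other libraries of its group. *Il2rg* was 51.8 FPKM in K2KO1, whereas the other 3 libraries labelled K2KO lay between 46.2 and 46.8 FPKM, a gap of 0.901 of the group's range, past the critical value of Dixon's test for 4 values. It was the only one among 22 groups of 4 values examined, the members and *Klf2* in each genotype, and chance gives about 1 in 20, or 1.1. Without K2KO1 the log2 fold change of *Il2rg* was -0.33 and the gene was called.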

How the results depend on the processing

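Of the 10920 tested genes, 2014 were called, with 483 called without a filter, 746 under ordinary least squares, 110 at a fold threshold of 1, 977 after the GC and length correction and 919 when that correction was joined to the replicate block. Leaving out one library gave 337 (LysM3) to 2837 (K2KO3). Between these lay 2332 without LysM0, 736 without LysM1, 1030 without LysM2, 706 without K2KO0, 726 without K2KO1 and 496 without K2KO2. Upper-quartile scaling raised the share of called genes that were higher from 53.3% to 64.1%. Called chains numbered 1 without a filter, under upper-quartile scaling, ordinary least squares and the GC and length correction with or without the block, 0 at a fold threshold of 1, and 1 to 3 with a library left out. The column numbers did not pair the libraries (same-number correlations -0.07 to 0.07), and the replicate block alone called 2057 genes and 2 chains. At a fold threshold of 1, *Il10ra* (log2 fold change -0.51) and *Il2rg* (-0.29) were not called. *Il2rg* also lost its call without a filter (-0.29), under ordinary least squares (-0.29), quantile (-0.20) and upper-quartile scaling (-0.25) and the GC and length correction with or without the block (-0.24). *Il6ra* was called under quantile normalization (-0.29). *Il10rb*, at 0.22 and a limma adjusted p of 0.0464 there, missed the fold threshold. Uncalled values changed sign as follows. Quantile normalization gave -0.0530 for *Il17ra*, 0.10 for *Ifngr1* and 0.0650 for *Ifngr2*. Upper-quartile scaling gave 0.0124 for *Il4ra* and 0.0108 for *Ifngr1*. The GC and length correction, with or without the block, gave -0.0408 for *Il13ra1*, -0.0196 for *Il17ra* and 0.0531 for *Klf2*, and without the block a log2 difference of 0.0113 for *Il4ra* over *Il13ra1*. With a library left out, log2 fold changes ranged from -0.0810 to 0.0434 for *Il4ra*, -0.35 to -0.26 for *Il2rg*, -0.30 to -0.19 for *Il6ra*, -0.0781 to 0.151 for *Il17ra*, -0.0796 to 0.0030 for *Ifngr1* and -0.00078 to 0.083 for the ratio of *Ifngr1* to *Ifngr2*. In the same fits *Klf2* ranged from -0.31 to -0.0701 and was never called, and *Il13ra1* ranged from 0.0507 to 0.223. The causes were not tested. The depth of the libraries is unknown, which limits the lowest chains, *Il13ra1* and *Il17ra*.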

Other observations

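*Cish*, a STAT5-induced inhibitor of cytokine receptor signalling, fell under the filter on low values. It was listed at 0, 0.113, 0 and 0.0490 FPKM in LysM0 to LysM3 and at 1.28, 0.938, 1.68 and 2.21 FPKM in K2KO0 to K2KO3. *Lifr*, the leukemia inhibitory factor chain that pairs with gp130, also fell under the filter, at 0.773 to 1.65 FPKM in LysM and 0.491 to 0.649 FPKM in the libraries labelled K2KO. Neither group pair overlapped, which was also the case for 23.1% of the genes that passed the filter (12.9% higher and 10.2% lower). Both were picked with their values in view, and *Cish* reached a mean FPKM of 0.1 only through the libraries labelled K2KO, so these values are a description and no test is given for them. The MHC class II genes on the interferon-gamma list were lowest in LysM0 among the LysM libraries. *H2-Aa* was 294.3, 583.1, 785.9 and 723.9 FPKM in LysM0 to LysM3 and 315.6, 283.1, 369.7 and 468.1 FPKM in K2KO0 to K2KO3, and was not called (log2 fold change -0.66, limma adjusted p = 0.130). Without LysM0 it was called at -0.97 (limma adjusted p = 0.0132), as were *Cd74* at -0.74 (0.0129), *H2-Ab1* at -0.98 (0.0178) and *H2-Eb1* at -0.69 (0.0349). That fit called 21.4% of all tested genes. With all libraries *Cd74* was at -0.52 (limma adjusted p = 0.109), *H2-Ab1* at -0.68 (0.134) and *H2-Eb1* at -0.39 (0.342). None of these genes was called under any other setting or with another library left out.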
